A study of Mus musculus with 16 samples.

Results

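The 5 genes that encode the NF-kB subunits (Rela, Relb, Rel, Nfkb1 and Nfkb2) were followed across 16 bulk RNA-seq libraries of mouse cells from YUMM1.7 tumours, which grow from an engrafted mouse melanoma line. They were found by matching each symbol to an Ensembl gene in the count table, which held 32697 genes, and all 5 were among the 16040 genes with enough reads to be tested. According to the series the libraries were made from sorted cDC1s (conventional dendritic cells of type 1), which take up tumour antigen and present it to CD8 T cells. The genotype labels gave Ikbkb floxed controls (genotype label IKKbFF), Ikbkb-deleted (IKKbdeltaXCR1), Irf1 floxed controls (IRF1FF) and Irf1-deleted (IRF1deltaXCR1), with 4 libraries in each of these 4 groups. IKK-beta, the product of Ikbkb, is the kinase through which many stimuli switch NF-kB on, and IRF1 is an interferon-induced transcription factor. Each deletion is labelled after XCR1, a chemokine receptor that marks cDC1s, and the control labels do not name it. The names read as a floxed allele shared by the controls and the deleted mice of a set, which the labels do not state. The growth and treatment notes named only female mice of the Ikbkb strains, which received no treatment other than the tumour cells, and tumours were grown to 200 to 350 mm3. Sex and strain of the Irf1 mice, the age of any mouse, the sorting gate, the floxed exons and whether each library came from a separate animal are not given in the sources used here. P-values therefore measure the spread between these libraries, which may in part be technical.

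NF-kB works as pairs of subunits that bind DNA at kappaB sites. RelA, RelB and c-Rel (the product of Rel) carry a domain that switches genes on, whereas Nfkb1 and Nfkb2 encode the precursors p105 and p100, which are cut to p50 and p52 and also hold partner subunits in the cytoplasm. In the canonical route IKK-beta marks IkB proteins for destruction and frees mainly RelA and c-Rel pairs with p50. In the non-canonical route, downstream of receptors such as CD40 and the lymphotoxin-beta receptor, the kinases NIK and IKK-alpha drive the cutting of p100 and free RelB with p52. In dendritic cells the subunits, RelB above all, are known for their part in maturation, and transcription of several subunit and IkB genes is itself driven by NF-kB. The libraries measured RNA, so they do not show how much of any subunit was in the nucleus.

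Promoter sequences are shown as background on the members and were not related to the levels that follow. The RefSeq table (build GRCm38.p6) held the window from 250 bases before to 50 bases after the start site for 3 of the 5 genes, Rela, Rel and Nfkb2. Both strands were searched for the kappaB consensus, a motif of 10 bases, and overlapping matches were merged into 1 stretch. The consensus was present in 1480 of 32851 promoters of this length (4.505%) and in at least 1 promoter of 1388 of 27025 genes (5.136%). The Rela window (chr19:5637291-5637590, plus strand) had no stretch that matched, the Rel window (chr11:23770920-23771219, minus strand) had 1, and the Nfkb2 windows at 2 start sites (chr19:46304487-46304786 and chr19:46305445-46305744, plus strand) had 2 each. A further Nfkb2 start site overlapped the second window and is not shown. The sequences are printed 5′ to 3′ from the first base of the window, without its last 20 bases, and capitals mark the consensus. Counting the start site as 0, the stretch in Rel ran from base -92 to -82. Those in Nfkb2 ran from -39 to -29 and from -11 to -2 in the first window, and from -236 to -227 and from 10 to 19 in the second. A match is a description of the letters and not a measured binding site.
Rela: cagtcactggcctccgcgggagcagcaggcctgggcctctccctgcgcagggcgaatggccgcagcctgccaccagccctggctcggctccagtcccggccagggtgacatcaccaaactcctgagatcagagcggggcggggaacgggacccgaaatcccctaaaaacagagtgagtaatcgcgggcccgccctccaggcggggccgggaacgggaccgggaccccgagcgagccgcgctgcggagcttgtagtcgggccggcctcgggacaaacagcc
Rel: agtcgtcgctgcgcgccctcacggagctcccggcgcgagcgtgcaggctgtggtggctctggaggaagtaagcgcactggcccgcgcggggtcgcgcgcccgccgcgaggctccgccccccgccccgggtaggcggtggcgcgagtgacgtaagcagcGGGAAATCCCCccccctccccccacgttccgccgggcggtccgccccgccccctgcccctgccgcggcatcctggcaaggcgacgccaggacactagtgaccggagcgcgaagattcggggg
Nfkb2, first start site: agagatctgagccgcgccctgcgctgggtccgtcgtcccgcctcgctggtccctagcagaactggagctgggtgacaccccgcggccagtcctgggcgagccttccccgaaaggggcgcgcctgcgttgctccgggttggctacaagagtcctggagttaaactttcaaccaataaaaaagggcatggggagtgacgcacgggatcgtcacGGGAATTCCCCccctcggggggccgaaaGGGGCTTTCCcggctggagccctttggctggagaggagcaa
Nfkb2, second start site: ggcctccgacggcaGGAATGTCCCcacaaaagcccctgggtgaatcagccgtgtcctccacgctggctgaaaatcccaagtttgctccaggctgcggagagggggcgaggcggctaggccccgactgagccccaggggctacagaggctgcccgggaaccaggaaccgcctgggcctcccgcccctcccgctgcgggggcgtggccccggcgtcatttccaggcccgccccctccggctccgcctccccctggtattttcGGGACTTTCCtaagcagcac

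Libraries held 16478671 to 27433818 counts in genes and 18468 to 22900 genes with a count, mitochondrial genes took 0.70% to 3.15% of counts, and each subunit gene had 104 to 8032 counts per library. All 14 cDC1 markers were detected in every library, but their summed level ran from 879 to 9327 CPM (counts relative to the TMM-scaled library size), and RNA of other cells was present. Markers of macrophages and monocytes (14 of 14 detected throughout) summed to 3353 to 14878 CPM, and those of fibroblasts and endothelium (9 of 9) to 6161 to 30435 CPM. The 15 T and NK cell markers summed to 52.4 to 1859 CPM, with Prf1, Ncr1, Klrb1c and Ifng at 0 in at least 1 library. Sums were 81.9 to 436 CPM for 8 cDC2 markers, 21.2 to 364 CPM for 8 B cell markers, 12.0 to 139.8 CPM for 7 neutrophil markers and 2.55 to 16.9 CPM for 8 melanoma markers, and each of these lists had markers at 0 in some library (Mlana, Tyr, Dct and Tyrp1 among the melanoma genes). A pair of libraries stood apart in cDC1 RNA, Ikbkb control replicate 3 at 8981 CPM and Ikbkb-deleted replicate 1 at 9327 CPM, against at most 3998 CPM in the other 14. Ikbkb control replicate 3 also had the highest T and NK sum (1859 CPM). Whole-gene counts of the targeted genes did not separate the labelled groups: Ikbkb stood at 44.5 to 120.8 CPM in its controls and 28.5 to 46.3 CPM where it was deleted, and Irf1 at 141 to 268 CPM in its controls and 98.6 to 299 CPM where it was deleted. The highest Irf1 value of that set was in the library labelled Irf1-deleted replicate 1. Groups are named by their genotype labels throughout.

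**Figure D1:**
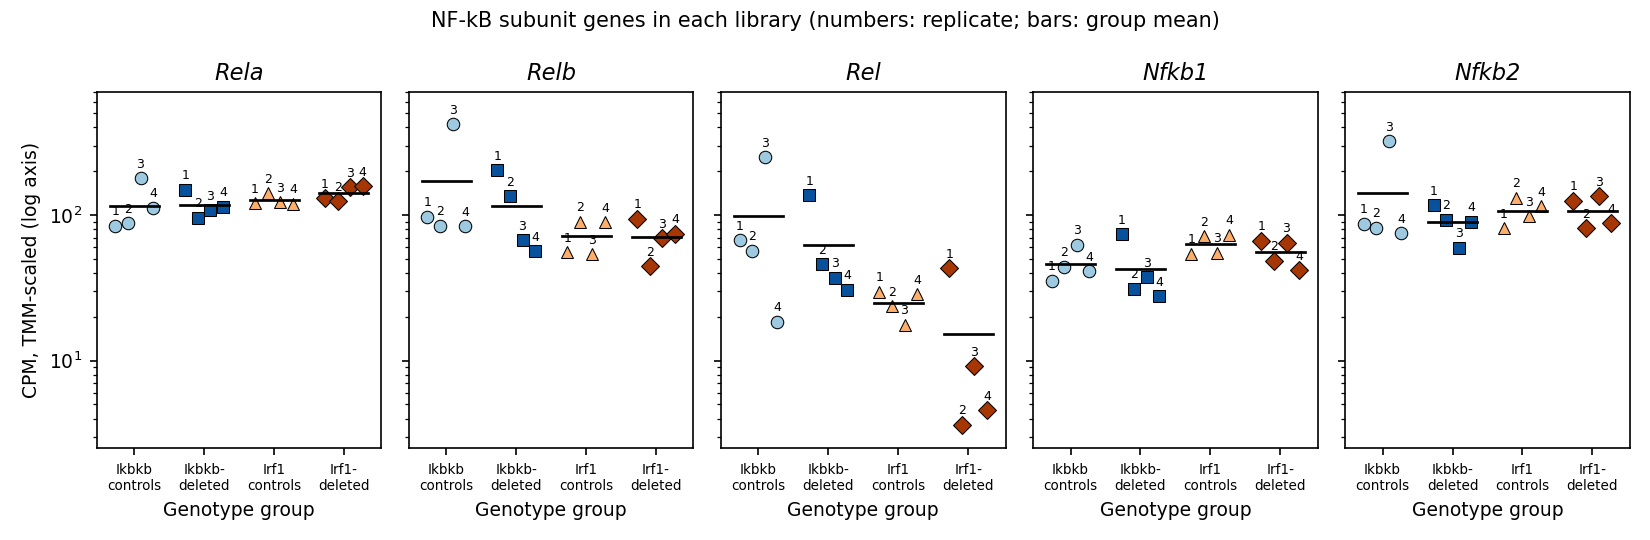
Level of each NF-kB subunit gene in each library, as TMM-scaled CPM on a log axis, by genotype group (4 libraries a group). Points are libraries with their replicate number and bars are group means, and each deleted group overlaps its own controls for all 5 genes. Rela and Nfkb1 stay within a narrow band, whereas Relb and Nfkb2 are highest in Ikbkb control replicate 3 and Rel spans 3.63 to 249 CPM.

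Rela encodes p65, the main activating subunit of the canonical pathway. The gene lies on chr19:5637483-5648130 (mm10, plus strand; ENSMUSG00000024927). It stood at 84.5, 87.6, 178 and 112 CPM in Ikbkb control replicates 1 to 4 and at 149, 95.9, 108 and 114 CPM in the Ikbkb-deleted libraries. Irf1 controls had 120.4, 142, 123 and 119 CPM and the Irf1-deleted libraries 130.4, 125, 155 and 157 CPM. Apart from Ikbkb control replicate 3 and Ikbkb-deleted replicate 1, the Ikbkb set lay below every Irf1 control. The highest library was 2.11 times the lowest, the smallest such ratio among the 5 genes.

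Relb encodes the subunit that pairs with p52 in the non-canonical pathway, and it is needed for the development and maturation of several dendritic cell types. It lies on chr7:19606217-19629438 (mm10, minus strand; ENSMUSG00000002983). It stood at 97.5, 84.2, 422 and 83.6 CPM in the Ikbkb controls and at 203, 134, 66.9 and 56.4 CPM in the Ikbkb-deleted libraries. In the Irf1 set it stood at 55.8, 90.1, 53.6 and 89.5 CPM in the controls and at 94.5, 44.5, 69.5 and 74.5 CPM in the deleted libraries. Ikbkb control replicate 3 was more than 4 times every other control of its group, and the next highest library was Ikbkb-deleted replicate 1. The highest library was 9.50 times the lowest.

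Rel encodes c-Rel, a subunit largely restricted to blood cells that drives cytokine genes such as Il12b in dendritic cells. It lies on chr11:23736847-23770970 (mm10, minus strand; ENSMUSG00000020275). It stood at 67.0, 57.0, 249 and 18.5 CPM in the Ikbkb controls and at 136, 46.1, 37.0 and 30.7 CPM in the Ikbkb-deleted libraries. In the Irf1 controls it stood at 29.8, 23.6, 17.6 and 28.5 CPM, and in the Irf1-deleted libraries at 43.2, 3.63, 9.18 and 4.56 CPM. The same pair of libraries was highest as for Relb, and Irf1-deleted replicates 2, 3 and 4 were the lowest of all 16. The library labelled Irf1-deleted replicate 1 lay above every Irf1 control. The highest library was 68.6 times the lowest, the widest ratio among the 5 genes.

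Nfkb1 encodes p105, the precursor of p50, the usual partner of RelA and c-Rel. It lies on chr3:135584655-135691547 (mm10, minus strand; ENSMUSG00000028163). It stood at 35.4, 44.2, 62.6 and 41.0 CPM in the Ikbkb controls and at 73.6, 31.2, 37.5 and 27.6 CPM in the Ikbkb-deleted libraries. Irf1 controls had 54.1, 71.8, 55.1 and 73.3 CPM and the Irf1-deleted libraries 66.6, 48.6, 64.7 and 41.6 CPM. Except for Ikbkb control replicate 3 and Ikbkb-deleted replicate 1, the Ikbkb set lay below every Irf1 control. The highest library was 2.67 times the lowest.

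Nfkb2 encodes p100, which retains RelB until it is cut to p52. It lies on chr19:46304320-46312385 (mm10, plus strand; ENSMUSG00000025225). Its exons share 531 bases with the long non-coding RNA AC114539.1 and 299 bases with Psd, both on the opposite strand, so without a stated strand setting reads there cannot be told apart; the other 4 genes share no exon bases with another gene. It stood at 87.3, 81.8, 320.0 and 75.3 CPM in the Ikbkb controls and at 117, 92.8, 59.8 and 89.9 CPM in the Ikbkb-deleted libraries. Irf1 controls had 81.0, 132, 98.1 and 115 CPM and the Irf1-deleted libraries 126, 80.9, 135 and 88.2 CPM. Only Ikbkb control replicate 3 was far from the rest, and the highest library was 5.35 times the lowest.

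The 5 genes thus differed in how much they varied between libraries of the same group. The within-group SD of log2 CPM was 1.22 for Rel, 0.78 for Relb and 0.59 for Nfkb2. It was 0.41 for Nfkb1 and 0.30 for Rela. Set beside all tested genes within 0.5 log2 CPM of their mean level, 98.6% of 2343 genes had a smaller spread than Rel, 95.3% of 1907 a smaller spread than Relb and 91.9% of 1654 a smaller spread than Nfkb2. For Nfkb1 the share was 60.0% of 2396 genes and for Rela 43.7% of 1411. The Nfkb2 spread rested on Ikbkb control replicate 3: without that library, a check added after seeing the data, its SD was 0.33, close to the median of 0.30 for genes of like level. Rel and Relb still had an SD of 1.08 and 0.56 without it, beside medians of 0.42 and 0.31.

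**Figure D2:**
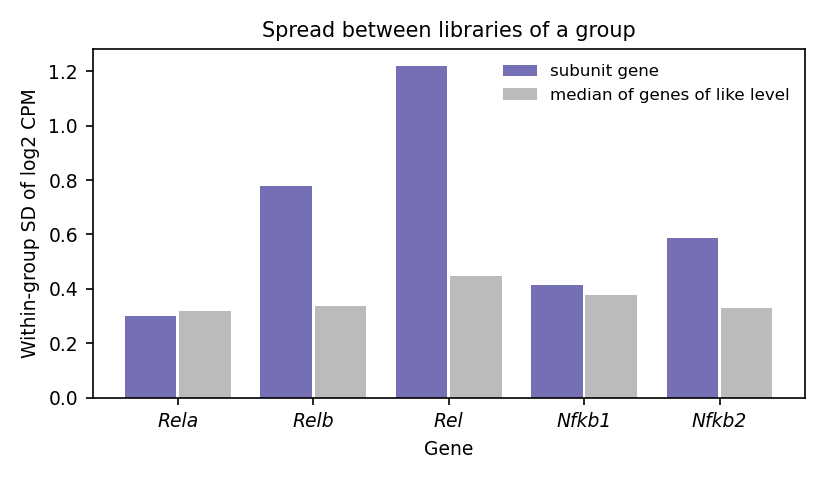
Spread between libraries of a group for each NF-kB subunit gene, as the pooled within-group SD of log2 CPM over the 4 groups of 4 libraries, beside the median SD of tested genes of like level. Rel (1.22 against 0.45), Relb (0.78 against 0.34) and Nfkb2 (0.59 against 0.33, but 0.33 against 0.30 without Ikbkb control replicate 3) exceed that median, while Nfkb1 (0.41 against 0.38) and Rela (0.30 against 0.32) are close to it.

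To compare the genes with each other, CPM was divided by the length of the longest protein-coding transcript in kilobases (2716 bases for Rela, 2209 for Relb, 7466 for Rel, 4117 for Nfkb1 and 3846 for Nfkb2). On this scale the mean levels in the Irf1 controls were 46.4 ± 3.8 CPM per kb for Rela, 32.7 ± 9.2 for Relb, 27.7 ± 5.7 for Nfkb2, 15.4 ± 2.5 for Nfkb1 and 3.33 ± 0.74 for Rel (SD, n = 4). Relb and Nfkb2 overlapped in that group, and each other step of the order had no overlap between its neighbours. The Irf1-deleted libraries had the same order, with 52.3 ± 6.2 CPM per kb for Rela, 32.0 ± 9.3 for Relb, 27.9 ± 7.0 for Nfkb2, 13.5 ± 3.0 for Nfkb1 and 2.03 ± 2.53 for Rel, and again only Relb and Nfkb2 overlapped. In the Ikbkb controls Relb came first, at 77.8 ± 75.6 CPM per kb, before Rela at 42.6 ± 16.1, Nfkb2 at 36.7 ± 31.0, Rel at 13.1 ± 13.8 and Nfkb1 at 11.1 ± 2.9. There Relb exceeded Rela in 3 of 4 libraries and Nfkb1 exceeded Rel in 2 of 4. All neighbours in that order overlapped, although Nfkb2 and Nfkb1 did not. In the Ikbkb-deleted libraries the means were 52.2 ± 30.9 CPM per kb for Relb, 43.0 ± 8.4 for Rela, 23.4 ± 6.1 for Nfkb2, 10.3 ± 5.1 for Nfkb1 and 8.38 ± 6.65 for Rel, and Rela and Nfkb2 were the neighbours without overlap. Nfkb2 exceeded Nfkb1 per kb in all 16 libraries and Nfkb1 exceeded Rel in 13.

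The order depends on the length used for Relb and Nfkb1. Divided by the union of all annotated exons (3885 bases for Relb and 12061 for Nfkb1), Relb exceeded Nfkb2 in 7 of 16 libraries instead of 13, and Nfkb1 exceeded Rel in 8 instead of 13. Rela exceeded Relb in 13 libraries instead of 11, and Nfkb2 still exceeded Nfkb1 in all 16.

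As a share of the summed CPM per kb of the 5 genes, Relb made up 34.1% to 49.2% in the Ikbkb controls and 21.9% to 29.8% in the Irf1 controls, with no overlap. Nfkb1 made up 3.91% to 9.76% in the Ikbkb controls and 11.8% to 13.1% in the Irf1 controls, again with no overlap, and with the exon union these ranges were 1.89% to 4.62% and 5.56% to 6.27%. The Relb share was 25.1% to 45.4% in the Ikbkb-deleted libraries and 20.2% to 29.4% in the Irf1-deleted libraries, so each deleted group overlapped its own controls. Rel fell under 1% of the sum in Irf1-deleted replicates 2, 3 and 4 (0.49%, 0.87% and 0.49%) and reached 3.98% in the library labelled Irf1-deleted replicate 1. These shares are descriptions and were given no test, and shares of 1 sum depend on each other. Between the same control groups 17.5% of all genes had no overlap in level, while all 5 subunit genes overlapped. The sum itself was 99.5 to 148 CPM per kb in 14 libraries, 214 in Ikbkb-deleted replicate 1 and 389 in Ikbkb control replicate 3.

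**Figure D3:**
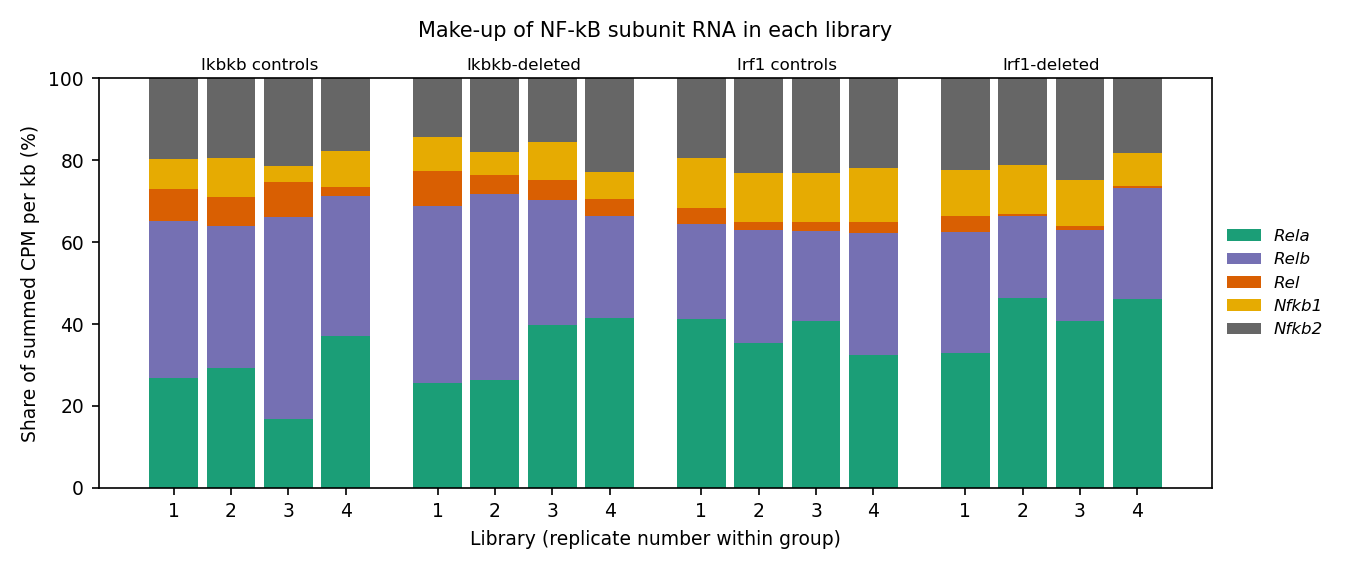
Share of each NF-kB subunit gene in the summed CPM per kb of the 5 genes (longest protein-coding transcript), in percent, 1 bar per library in 4 groups of 4. Relb takes 34.1% to 49.2% in the Ikbkb controls against 21.9% to 29.8% in the Irf1 controls, and Rel is a thin band in Irf1-deleted replicates 2 to 4.

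The first comparison asked whether loss of IKK-beta, which acts on NF-kB proteins, went with other RNA levels of the subunits. Mean levels in the Ikbkb-deleted and control libraries were 117 ± 23 and 116 ± 44 CPM for Rela, 115 ± 68 and 172 ± 167 CPM for Relb, and 62.6 ± 49.6 and 98.0 ± 103 CPM for Rel (SD, n = 4 each). They were 42.5 ± 21.2 and 45.8 ± 11.8 CPM for Nfkb1, and 89.9 ± 23.6 and 141 ± 119 CPM for Nfkb2. The log2 fold changes (deleted against control) were 0.01 for Rela (SE 0.22, 95% interval -0.46 to 0.49), -0.58 for Relb (SE 0.52, -1.70 to 0.55) and -0.65 for Rel (SE 0.79, -2.37 to 1.08). For the precursors they were -0.11 for Nfkb1 (SE 0.29, -0.74 to 0.52) and -0.65 for Nfkb2 (SE 0.40, -1.52 to 0.22). None of the 5 passed edgeR's quasi-likelihood test at an adjusted p under 0.05 (adjusted p = 1 for each), none had groups without overlap, and exact two-sided permutation p ran from 0.571 to 0.8, where the smallest possible is 0.0286. Over all genes 0.0% were called by edgeR, 769 of 16040 had an unadjusted p under 0.05, and 1.7% had groups without overlap. Limma voom called 0 genes and DESeq2 55, none of them a subunit gene.

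The lower means of Relb, Rel and Nfkb2 rested on Ikbkb control replicate 3. Without it the log2 fold changes were 0.37 for Relb, 0.39 for Rel, 0.14 for Nfkb2, 0.07 for Nfkb1 and 0.29 for Rela. Without Ikbkb-deleted replicate 1 instead, they were -1.01 for Relb, -1.37 for Rel and -0.51 for Nfkb1. With both left out, a setting chosen after seeing the data, they were -0.05 for Relb, -0.32 for Rel, -0.01 for Nfkb2, -0.32 for Nfkb1 and 0.16 for Rela. No adjusted p passed the threshold in any of these.

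The second comparison asked the same of IRF1. Mean levels in the Irf1-deleted and control libraries were 142 ± 17 and 126 ± 10 CPM for Rela, 70.7 ± 20.6 and 72.2 ± 20.3 CPM for Relb, 15.1 ± 18.9 and 24.9 ± 5.5 CPM for Rel, 55.4 ± 12.3 and 63.6 ± 10.4 CPM for Nfkb1, and 107 ± 27 and 106 ± 22 CPM for Nfkb2 (SD, n = 4 each). The log2 fold changes were 0.17 for Rela (SE 0.22, 95% interval -0.30 to 0.64), -0.03 for Relb (SE 0.52, -1.155 to 1.095) and -0.72 for Rel (SE 0.80, -2.46 to 1.02). They were -0.20 for Nfkb1 (SE 0.29, -0.83 to 0.43) and 0.01 for Nfkb2 (SE 0.40, -0.86 to 0.88). None of the 5 was called (adjusted p = 1 for each by edgeR) and none had groups without overlap, with exact permutation p from 0.143 to 1. Over all genes 0.0% were called by edgeR, 419 of 16040 had an unadjusted p under 0.05, and 2.89% had groups without overlap. Limma voom called 0 genes and DESeq2 13, none of them a subunit gene.

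Rel was the gene with the most uneven Irf1-deleted group. In 3 of 4 Irf1-deleted libraries Rel lay below every control, and in the library labelled Irf1-deleted replicate 1 it lay above every control. Without that library the log2 fold change was -2.11 (SE 0.75), which was not called by edgeR (adjusted p = 1, and at least 0.983 over all other settings). The cDC1 gene Xcr1 stood at 196 CPM in that library and at 14.7 to 44.0 CPM in the other 3 of the group. The cDC1 genes Clec9a (14.2 against 1.78 to 13.0 CPM) and Batf3 (18.3 against 4.93 to 16.7 CPM) differed less. Mature dendritic cell genes summed to 1807 CPM there against 484 to 947 CPM. T and NK cell markers summed to 221 against 64.5 to 94.5 CPM and B cell markers to 152 against 21.2 to 48.3 CPM. The macrophage and monocyte sum (8647 CPM) lay within the range of the other 3 (5683 to 10797 CPM). The part of these genes in the Rel values was not tested, and in bulk libraries fewer cells of a type and less RNA per cell cannot be told apart.

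The difference between the deletion effects (Irf1 minus Ikbkb, an interaction term) was 0.16 for Rela (95% interval -0.51 to 0.83), 0.55 for Relb (-1.04 to 2.14) and -0.07 for Rel (-2.50 to 2.36) on the log2 scale. It was -0.09 for Nfkb1 (-0.98 to 0.80) and 0.66 for Nfkb2 (-0.57 to 1.89). None of the 5 was called by edgeR (adjusted p = 1.00 for each), nor was any gene tested (0.0% called, 455 of 16040 with an unadjusted p under 0.05), while limma voom called 0 genes and DESeq2 14. Without Ikbkb control replicate 3 the Relb and Nfkb2 differences became -0.40 and -0.12.

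The control groups of the sets differed at many genes: 12.6% of genes were called by edgeR, and 17.5% had groups without overlap. None of the 5 subunit genes was called and none had groups without overlap. Relb and Rel were lower in the Irf1 controls, with log2 fold changes of -1.25 (SE 0.52, unadjusted p = 0.0301, adjusted p = 0.128) and -1.98 (SE 0.82, unadjusted p = 0.0283, adjusted p = 0.123), neither past the edgeR threshold. Nfkb2 had -0.41 (adjusted p = 0.551), Rela 0.12 (adjusted p = 0.758) and Nfkb1 0.47 (adjusted p = 0.307). Without Ikbkb control replicate 3 the values were -0.29 for Relb, -0.93 for Rel, 0.39 for Nfkb2 and 0.66 for Nfkb1. With the mean log2 CPM of the cDC1 markers as a covariate Relb passed the edgeR threshold, at -0.69 (SE 0.23, adjusted p = 0.0490). This covariate is not the summed CPM used elsewhere. Over the other 14 settings the adjusted p of Relb ran from 0.0771 to 0.698. The set and everything that came with it, such as the strain, cannot be told apart.

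**Figure D4:**
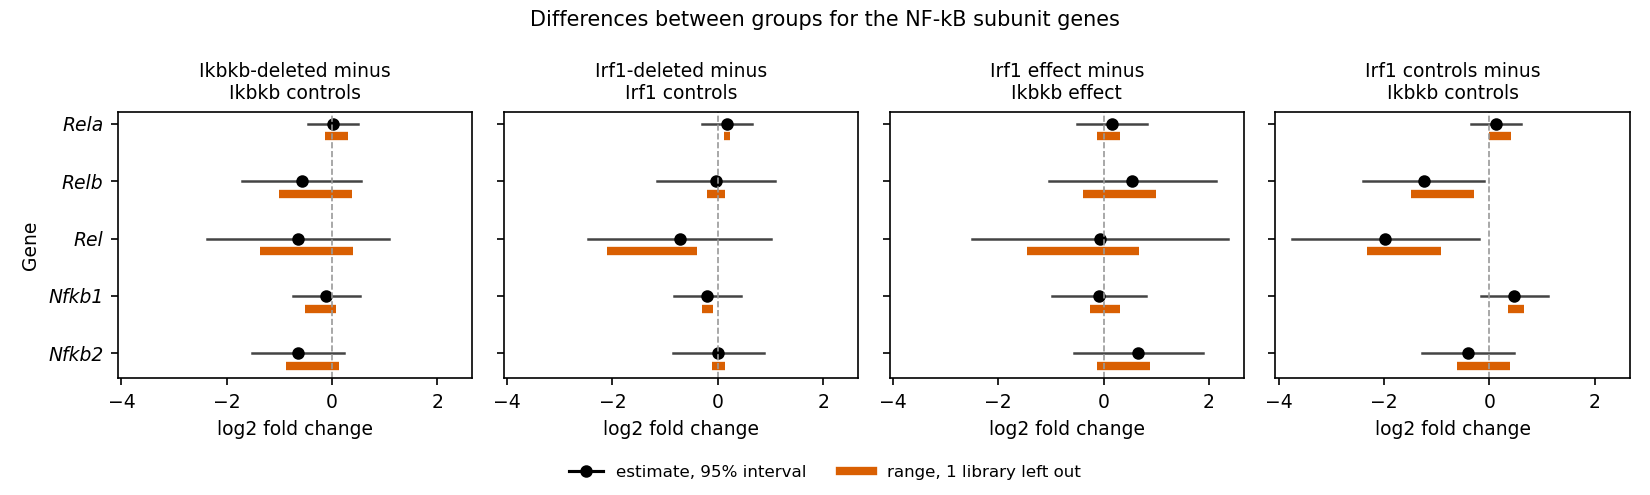
Log2 fold change of each NF-kB subunit gene in the 4 comparisons (edgeR fit of 16 libraries, 4 a group). Points are estimates with 95% intervals, and orange bars span the estimates with each library left out in turn. The intervals of all 5 genes include 0 in the deletion comparisons and in their difference, and the orange bars of Relb, Rel, Nfkb1 and Nfkb2 for the Ikbkb deletion lie on both sides of 0, as that of Rela does.

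Levels were then set beside marker sums over the 16 libraries, as 35 relations adjusted together by Benjamini-Hochberg (10 between the subunit genes and 25 with 5 marker lists). Genes of mature dendritic cells (Ccr7, Fscn1, Ccl22, Cd40, Cd80, Cd86, Lamp3, Il4i1, Socs2, Cacnb3, Il12b and Cd274) summed to 1464 to 8418 CPM in the Ikbkb controls and, after deletion, to 1354 to 4633 CPM. In the Irf1 set the sum was 577 to 1452 CPM for the controls and 484 to 1807 CPM for the deleted libraries, and Lamp3 and Il4i1 were at 0 in at least 1 library of every group. Relb followed this sum with r = 0.93 on log2 values (adjusted permutation p = 0.000175, n = 16) and rho = 0.88 (adjusted permutation p = 0.0007). Without the 2 libraries farthest from the median r was 0.82, and within sets of 8 libraries it was 0.97 in the Ikbkb set and 0.90 in the Irf1 set. The adjusted exact p within sets was 0.0113 and 0.0564. Rel followed it with r = 0.90 (adjusted permutation p = 0.000175) and rho = 0.92 (adjusted permutation p = 0.00035). For Rel r was 0.82 without those 2 libraries, 0.94 in the Ikbkb set (adjusted exact p = 0.0205) and 0.74 in the Irf1 set (adjusted exact p = 0.167). The unadjusted p of r was 1e-05 for both pooled relations, the smallest that the resamples can give.

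Rela and Nfkb1 did not follow the mature genes over all libraries, with r = 0.12 (permutation p = 0.664, adjusted 0.801) and r = 0.10 (permutation p = 0.722, adjusted 0.808). Their rho was -0.17 and -0.01 (adjusted permutation p = 0.659 and 0.996). Without the 2 farthest libraries r was -0.60 for Rela and -0.32 for Nfkb1. Within sets Rela had r = 0.74 in the Ikbkb libraries (adjusted exact p = 0.0772, with rho 0.19). In the Irf1 libraries it had r = 0.11 (adjusted exact p = 0.863, with rho 0.07). Nfkb1 had r = 0.75 in the Ikbkb and 0.73 in the Irf1 libraries (adjusted exact p = 0.0772 and 0.167), while pooled it was near 0. The Irf1 controls had a higher mean Nfkb1 level than the Ikbkb controls and a lower mature sum. Nfkb2 had r = 0.58 (permutation p = 0.0258, adjusted 0.0602) and rho = 0.26 (adjusted permutation p = 0.545), which rested on the pair of libraries richest in cDC1 RNA, since r was 0.01 without them. Within sets Nfkb2 had r = 0.90 in the Ikbkb libraries (adjusted exact p = 0.0214) and 0.73 in the Irf1 libraries (adjusted exact p = 0.167).

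**Figure D5:**
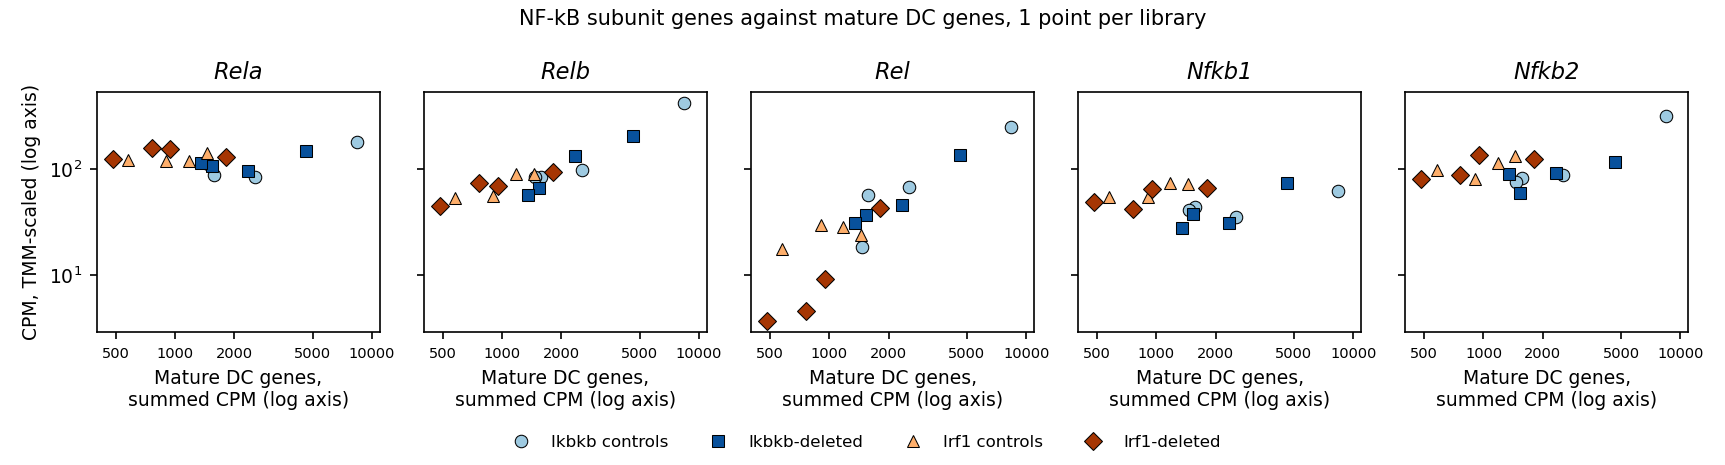
Level of each NF-kB subunit gene (TMM-scaled CPM, log axis) against the summed CPM of 12 mature dendritic cell genes (log axis), 1 point per library, with symbols for the 4 genotype groups. Relb (r = 0.93) and Rel (r = 0.90) rise with the sum, while Rela (r = 0.12) and Nfkb1 (r = 0.10) do not over all 16 libraries.

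The cDC1 sum gave r = 0.87 with Relb (permutation p = 6e-05, adjusted 0.0007; rho 0.83, adjusted 0.00198), 0.67 without the 2 farthest libraries, and 0.90 and 0.85 in the Ikbkb and Irf1 sets (adjusted exact p = 0.0214 and 0.0564). With Rel it gave r = 0.72 (permutation p = 0.002, adjusted 0.0117; rho 0.63, adjusted 0.0337), and 0.44 without those libraries. With Nfkb2 it gave r = 0.68 (permutation p = 0.00494, adjusted 0.0192, with rho 0.54, adjusted 0.0940), and again 0.44 without them. Within sets Rel had r = 0.91 in the Ikbkb set (adjusted exact p = 0.0214) and 0.57 in the Irf1 set (adjusted exact p = 0.338). For Nfkb2 these were 0.78 (adjusted exact p = 0.0478) and 0.56 (adjusted exact p = 0.357). The T and NK cell sum gave r = 0.75 with Relb (permutation p = 0.00081, adjusted 0.00567; rho 0.70, adjusted 0.0193) and 0.68 with Rel (permutation p = 0.00376, adjusted 0.0165; rho 0.58, adjusted 0.0650). Without the 2 farthest libraries these were 0.52 and 0.64, and no value within a set passed the threshold. The fibroblast and endothelial sum gave r = -0.57 with Relb (permutation p = 0.0176, adjusted 0.0474, with rho -0.67, adjusted 0.0282). With Rel it gave r = -0.57 (permutation p = 0.0199, adjusted 0.0498, with rho -0.73, adjusted 0.0127). Without the 2 farthest libraries these were -0.48 and -0.68. Within the Ikbkb set r was -0.28 for Relb and -0.30 for Rel. Within the Irf1 set it was -0.69 for Relb but 0.01 for Rel, and again no value within a set passed the threshold. The mean of this sum was higher in each Irf1 group than in each Ikbkb group. Pooled r takes in that difference between sets, and its part was not tested. None of the 5 macrophage relations passed (adjusted permutation p of at least 0.188 for r and 0.145 for rho). The lists share libraries and move together, so the part of each in the Relb and Rel levels was not tested.

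Between the subunit genes, Relb and Rel moved together with r = 0.78 (permutation p = 0.0004, adjusted 0.0035; rho 0.74, adjusted 0.0127), 0.55 without the 2 farthest libraries, 0.88 in the Ikbkb set (adjusted exact p = 0.0214) and 0.54 in the Irf1 set (adjusted exact p = 0.358). Relb and Nfkb2 had r = 0.75 (permutation p = 0.00589, adjusted 0.0206, with rho 0.52, adjusted 0.106), but pooled r was 0.27 without those libraries. Within sets r was 0.90 in the Ikbkb set (adjusted exact p = 0.0214). It was 0.75 in the Irf1 set (adjusted exact p = 0.167), which holds neither of the libraries left out. Over all libraries Rela moved with Nfkb2 (r = 0.67, permutation p = 0.00312, adjusted 0.0156, with r = 0.57 without the 2 farthest). It also moved with Nfkb1 (r = 0.61, permutation p = 0.0118, adjusted 0.0375, with r = 0.56 without). Nfkb1 and Nfkb2 had r = 0.56 (permutation p = 0.0153, adjusted 0.0446; 0.64 without). For these pairs Spearman's rho was 0.64, 0.63 and 0.64 (adjusted permutation p = 0.0337 each). In the Ikbkb and Irf1 sets r was 0.77 and 0.34 for Rela with Nfkb2, and 0.59 and 0.82 for Nfkb1 with Nfkb2. For Rela with Nfkb1 it was 0.70 in the Ikbkb set but -0.20 in the Irf1 set. None of these 3 pairs passed the threshold within a set (lowest adjusted exact p = 0.0772). Rela and Rel had r = -0.09 (adjusted permutation p = 0.808).

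The genes whose log2 CPM was most like each subunit gene over the 16 libraries were taken from the 3 with the highest r among 9438 genes. For Relb they were Cd40 (r = 0.95), which encodes a receptor of the non-canonical pathway and is also on the mature dendritic cell list, Phf11b (0.95) and Myo1g (0.95). For Rel they were Actr2 (0.95), a subunit of the Arp2/3 actin complex, Fgl2 (0.94) and Ncoa7 (0.93). For Rela they included Nsf (0.94) and Glmp (0.93). For Nfkb1 they were Rabep2 (0.92), Cbl (0.91), a ubiquitin ligase, and Ptpn7 (0.89), and for Nfkb2 they included Ezr (0.92) and Tor1aip1 (0.91). For Ezr and Tor1aip1 rho was lower, at 0.79 and 0.71. Without the 2 libraries farthest from the median their r was 0.81 and 0.79, and in the Irf1 set 0.74 and 0.71. Nsf had r = 0.73 in the Irf1 set. The matches are descriptions of 16 points that share library make-up, and no gene was nearest to more than 1 subunit gene.

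The other genes of the pathway were taken from lists that were chosen with earlier results known. In the Ikbkb deletion, 4 of 9 IKK complex and upstream kinase genes had a higher and 5 a lower estimate (median log2 fold change -0.26), and 1 of 6 IkB genes a higher and 5 a lower one (median -0.40). Of 12 receptors and adaptors 3 had a higher and 9 a lower estimate (median -0.12), and of 17 NF-kB target genes 2 a higher and 15 a lower one (median -0.45), beside a median of -0.02 over all genes. None of these 44 genes was called by edgeR, where 0.0% of all genes were. Ikbkb itself had a log2 fold change of -0.79 (SE 0.33, unadjusted p = 0.0279, edgeR adjusted p = 0.988), and -0.30 (edgeR adjusted p = 0.963) without Ikbkb control replicate 3, against an edgeR, DESeq2 or voom adjusted p of at least 0.577 over all other settings. Without that library the medians of the 4 lists changed sign, to 0.16, 0.27, 0.27 and 0.19 in the order given, with 12 of the 17 target genes and 5 of the 6 IkB genes higher. In the Irf1 deletion the medians were -0.29, -0.02, -0.03 and -0.26 for the lists in the same order, beside -0.02 over all genes. Again none of the 44 was called by edgeR. The target list holds Irf1, the gene deleted here, and its own estimate (-0.26) was the median of that list. Without Irf1 control replicate 4 the medians of the IkB and target genes were 0.10 and 0.03, and without Irf1 control replicate 2 that of the receptors and adaptors was 0.06.

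Between the control groups 7 of the 44 genes were called, where 12.6% of all genes were. All 6 IkB genes had lower estimates in the Irf1 controls (median -1.17), and 2 were called. Nfkbia, which encodes IkB-alpha, the inhibitor destroyed in the canonical route, stood at 263 ± 56 CPM against 873 ± 328 CPM in the Ikbkb controls (log2 fold change -1.73, SE 0.24, edgeR adjusted p = 0.00391). Nfkbiz, which encodes a nuclear IkB protein, stood at 49.4 ± 18.9 and 130.1 ± 46.9 CPM (-1.40, SE 0.34, edgeR adjusted p = 0.0166). Without Ikbkb control replicate 3 both were still called, at -1.45 and -1.12, but 5 of the 6 IkB genes were lower and their median was -0.36, beside 0.11 over all genes. Of the 17 target genes 16 had lower estimates (median -1.27, beside -0.01 over all genes), and 4 were called. Tnfaip3, which encodes the feedback inhibitor A20, had -1.74 (SE 0.36, edgeR adjusted p = 0.00884), and the chemokine gene Ccl4 had -3.30 (SE 0.81, edgeR adjusted p = 0.0185). The dendritic cell maturation marker Cd83 had -3.04 (SE 0.79, edgeR adjusted p = 0.0228), and the cytokine gene Il1b had -2.89 (SE 0.83, edgeR adjusted p = 0.0345). Without Ikbkb control replicate 3 Cd83 (-1.73, edgeR adjusted p = 0.0755) and Il1b (-1.80, edgeR adjusted p = 0.115) were no longer called, while Tnfaip3 (-1.35) and Ccl4 (-2.57) were. Tnip1, also on the target list, was then called as higher, at 1.19 (edgeR adjusted p = 0.0424). With all libraries it had 0.87 (edgeR adjusted p = 0.118), and with the T and NK covariate 1.40 (edgeR adjusted p = 0.0106). Without Ikbkb control replicate 3 the target list had 13 of 17 lower, with a median of -0.68. Over all other settings the edgeR, DESeq2 or voom adjusted p ran from 1.25e-05 to 0.144 for Cd83 and from 0.00145 to 0.115 for Il1b. Ccl22 and Il12b are both on this list and on that of mature dendritic cells.

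Of the 9 IKK complex and upstream kinase genes 6 had higher estimates in the Irf1 controls and 1 was called, Tab1, which encodes a partner of the kinase TAK1, at 42.9 ± 11.8 CPM against 19.0 ± 11.2 CPM (1.17, SE 0.32, edgeR adjusted p = 0.0286). Over 15 other settings Nfkbia and Tnfaip3 passed the threshold in 15, Ccl4 in 13, Nfkbiz in 12, Il1b in 11, Cd83 in 10 and Tab1 in 8. Of 12 receptors and adaptors 6 had higher and 6 lower estimates and none was called, with the tumour necrosis factor receptors Tnfrsf1a at 0.17 (edgeR adjusted p = 0.686) and Tnfrsf1b at -0.53 (edgeR adjusted p = 0.427). Without Ikbkb control replicate 3, 8 of the 9 kinase genes and 8 of the 12 receptors and adaptors had higher estimates. Mature dendritic cell, cDC1 and T and NK sums were also lower on average in the Irf1 controls (1028 against 3498 CPM, 1838 against 3387 CPM and 279 against 721 CPM), and the fibroblast and endothelial sum was higher (21074 against 9161 CPM). Without Ikbkb control replicate 3 the Ikbkb control means were 1858, 1522 and 341 CPM for the first 3 sums, so the cDC1 sum was then higher in the Irf1 controls, while the fibroblast and endothelial mean was 9202 CPM. The T and NK mean of the Irf1 controls was 134 CPM without replicate 4. The part of these sums in the IkB and target gene differences was not tested.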

How the data were processed

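Total counts came from libraries made with SMART-Seq v4 from 1000 pg of RNA and 12 cycles of PCR, then Nextera XT and 12 more, per the labels' protocols. The authors deposited 1 table of raw, unnormalized counts, with 1 row per Ensembl gene and 1 column per library. The submitters' processing notes name STAR 2.5.3a, HTSeq 0.6.1p1, cutadapt 1.10 and bcl2fastq 2.17.1.14, with build mm10. Which annotation release was used, and whether strand was, is not given in the sources used here. Gene coordinates and transcript lengths came from GENCODE M21, in which 32684 of the 32697 genes had a symbol.

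Genes were filtered with filterByExpr (minimum count 10, minimum total 15), leaving 16040. edgeR 4.0.16 in R 4.3.3 fitted all libraries with TMM scaling and 1 mean per group by quasi-likelihood, and p-values were adjusted by Benjamini-Hochberg over all genes tested (threshold 0.05). The 95% intervals used the t distribution with 12 residual degrees of freedom. Log2 CPM used a prior count of 2. Pooled relations used 100000 resamples and those within sets all 40320 pairings, two-sided. Other settings were RLE and upper-quartile scaling, no filter, DESeq2 1.42.0, limma 3.58.1 (voom with quality weights), 1 set alone, cDC1 or T and NK marker covariates and leaving out each library. The pipeline was tested on simulated data. Any pair of replicates differed beyond counting error, with a chi-square averaging 49.2 or more over genes. PCR copies were not marked by molecular identifiers, so depth speaks to counting error only.

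Named were the 5 genes, the called members of each pathway list (else the 2 with the highest mean CPM), and per subunit gene the 3 most alike among genes whose log2 CPM averaged 3 or more, leaving out predicted genes and pseudogenes; some of these are not reported here. The members and lists were chosen with earlier results of these data known.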

Additional observations from a re-analysis of the deposited data

Results flagged for a closer look

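By Dixon's test the highest library was far from the others in 5 of the 20 sets of 4 values (5 genes in 4 groups). Chance gives about 1 in 20 only for independent, normally spread sets. These sets share libraries, and CPM rather than log2 CPM was used, so the count is not read as an excess over chance. Relb in Ikbkb control replicate 3 stood at 422 CPM, with the other 3 controls at 83.6 to 97.5 CPM, so the gap was 0.959 of the range. Nfkb2 in the same library stood at 320.0 CPM, with the others at 75.3 to 87.3 CPM (0.951). Rel in Ikbkb-deleted replicate 1 stood at 136 CPM, with the next at 46.1 CPM (0.854). These were the libraries with the highest sums of cDC1 and of mature dendritic cell genes. Rel in the library labelled Irf1-deleted replicate 1 stood at 43.2 CPM, with the next at 9.18 CPM (0.860). This library had the highest cDC1 sum (3998 CPM) and the highest B cell sum (152 CPM) of the Irf1 set. Rela in Irf1 control replicate 2 stood at 142 CPM, with the next at 123 CPM (0.842), a gap that is small beside the spread of the other genes. The part of cDC1 RNA or of RNA from other cells in these values was not tested.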

How the results depend on the processing

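No paired analysis was possible because the titles number the 16 libraries in 1 run and give no number that groups share (replicates were numbered by accession). Of 355 values of the 5 genes under other settings, 307 kept their direction and side of the threshold, 47 changed sign and 1 passed the threshold (Relb between the control groups with the cDC1 covariate, -0.69). For the Ikbkb deletion the sign changed for Rela with RLE (-0.0102), DESeq2 (-0.0110) and the cDC1 covariate (-0.0242), and with the T and NK covariate for Rel (0.11) and Nfkb1 (0.0538). For the Irf1 deletion it changed for Nfkb2 with the cDC1 covariate (-0.0739) and DESeq2 (-0.000856), and for Relb with the T and NK covariate (0.30) and voom (0.0338). For the difference it changed for Nfkb1 with the cDC1 covariate (0.0371) and voom (0.10) and for Rela with voom (-0.0402). Between the control groups it changed for Nfkb2 with the T and NK covariate (0.34) and voom (0.12).

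With each library left out in turn, the Ikbkb deletion gave -0.13 to 0.29 for Rela, -1.01 to 0.37 for Relb, -1.37 to 0.39 for Rel, -0.51 to 0.0718 for Nfkb1 and -0.87 to 0.14 for Nfkb2. The Irf1 deletion gave -0.20 to 0.14 for Relb and -0.12 to 0.13 for Nfkb2, with no sign change for Rela, Rel and Nfkb1. The difference gave -0.12 to 0.30 for Rela, -0.40 to 0.99 for Relb, -1.46 to 0.68 for Rel, -0.27 to 0.32 for Nfkb1 and -0.12 to 0.89 for Nfkb2. The control groups gave -0.00836 to 0.41 for Rela and -0.62 to 0.39 for Nfkb2, with no sign change for Relb, Rel and Nfkb1.

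Genes called over all genes were 0, 0, 0 and 2018 in the Ikbkb deletion, the Irf1 deletion, their difference and the control groups. DESeq2 called 55, 13, 14 and 3289, voom 4130 for the control groups, and no filter 1199. With each library left out the ranges were 0 to 1, 0 to 0, 0 to 1 and 782 to 2404; the 1 gene appeared without Ikbkb-deleted replicate 2 and without Irf1 control replicate 3. The cause of these changes was not tested. With 4 libraries a group and this spread, the interval for Rel in the Irf1 deletion reached from -2.46 to 1.02, so changes within it were not excluded.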
